A study of Mus musculus with 24 samples.

Results

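C-type lectin receptors are membrane proteins of myeloid cells that bind sugars and glycolipids on microbes and on dying cells. The group described here holds 10 genes chosen by name (Clec10a, Clec4a2, Clec4d, Clec4e, Clec4n, Clec7a, Clec12a, Cd209a, Cd209d and Mrc1) and found through the accession of each array probe. A probe was matched for 9 of the 10, and 7 gave signals bright enough to be tested among 20210 genes and transcripts in all. Levels were measured with 1-colour Agilent arrays on total RNA of bone marrow-derived dendritic cells (BMDCs), which had been grown from mouse bone marrow for 9 days with human Flt3 ligand at 100 ng/ml. The cells were wild type (WT), lacked Irf5 (Irf5-KO), lacked Lyn (Lyn-KO) or lacked both (DKO), all on a C57BL/6 background. They were left unstimulated or received 150 nM of CpG-B ODN (1668), a DNA ligand of Toll-like receptor 9, for 6 h. Each of the 8 groups had 3 arrays, described as biological replicates, and 24 arrays were made in all. The labels give no age, no sex and no account of how either gene was disrupted, and they mention no sorting of the cultures. Lyn is a Src-family kinase and Irf5 a transcription factor that acts below Toll-like receptors, and the design lets the response to CpG-B be compared with either gene or both genes missing.

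The receptors fall into 3 sets by their known roles. Clec4e (Mincle), Clec4d (MCL) and Clec4n (Dectin-2) bind microbial glycolipids or mannans and signal through the adaptor Fcer1g, which recruits the kinase Syk and then the Card9, Bcl10 and Malt1 complex, while Clec7a (Dectin-1) binds beta-glucan and engages Syk through its own tail. Clec4a2 (DCIR) and Clec12a (MICL) carry inhibitory motifs that recruit phosphatases such as Ptpn6. Clec10a (MGL1), Cd209a and Cd209d (mouse relatives of human DC-SIGN) and Mrc1 (the mannose receptor) are best known as sugar-binding receptors that take up antigen. Several of them mark monocyte-derived cells and type 2 conventional dendritic cells, and activation of dendritic cells is commonly accompanied by loss of uptake receptors.

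A level is given below as log2 of the processed signal minus the 75th percentile of its array, so that 0 is the signal of that percentile and a difference of 1 is a 2-fold change. Levels of different genes come from different probes and were not set against each other. A difference is called when its limma p, adjusted by Benjamini-Hochberg over the 20210 genes and transcripts, is under 0.05. On single arrays the share of spots well above background ran from 41.0% to 53.8%, and no spot was saturated. The dendritic cell markers (Flt3, Itgax, Zbtb46, H2-Ab1 and Cd74) were well above background on every array, 5 of 5 in each group. The Lyn probe stood at 0.75 to 1.13 in unstimulated WT and at -0.93 to -0.75 in Lyn-KO. The Irf5 probe was bright on all arrays, at 4.67 to 4.79 in unstimulated WT and 4.39 to 4.49 in Irf5-KO, and with CpG-B it was higher in Irf5-KO than in WT by 0.64 (adjusted p = 2.81e-05). It therefore does not check the label, and the sources used here do not say where the probe lies relative to the disruption. Irf5-KO and DKO stand below for the groups so labelled. Each of 3 slides held 1 array of every group, and within-slide differences are given beside the main results.

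CpG-B lowered most of the measured receptors and raised Clec4e in all 4 genotypes. In WT, 7 of the 7 tested receptors were called, 1 higher and 6 lower, where 68.5% of all genes and transcripts were called. In Irf5-KO the count was again 7 (1 higher, 6 lower) against 66.8%, in Lyn-KO 6 (1 higher, 5 lower) against 68.9%, and in DKO 7 (2 higher, 5 lower) against 70.5%. The counts therefore say little on their own, since most of the array responded. The median change of the 7 was -2.10 in WT, -2.55 in Irf5-KO, -3.19 in Lyn-KO and -2.44 for DKO, beside medians over all features of -0.03, -0.02, -0.01 and 0.02. Cd209a entered the test only through its unstimulated groups, so its fall adds no support to these counts. In such mixed cultures, fewer cells of a type and less RNA per cell cannot be told apart.

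**Figure D1:**
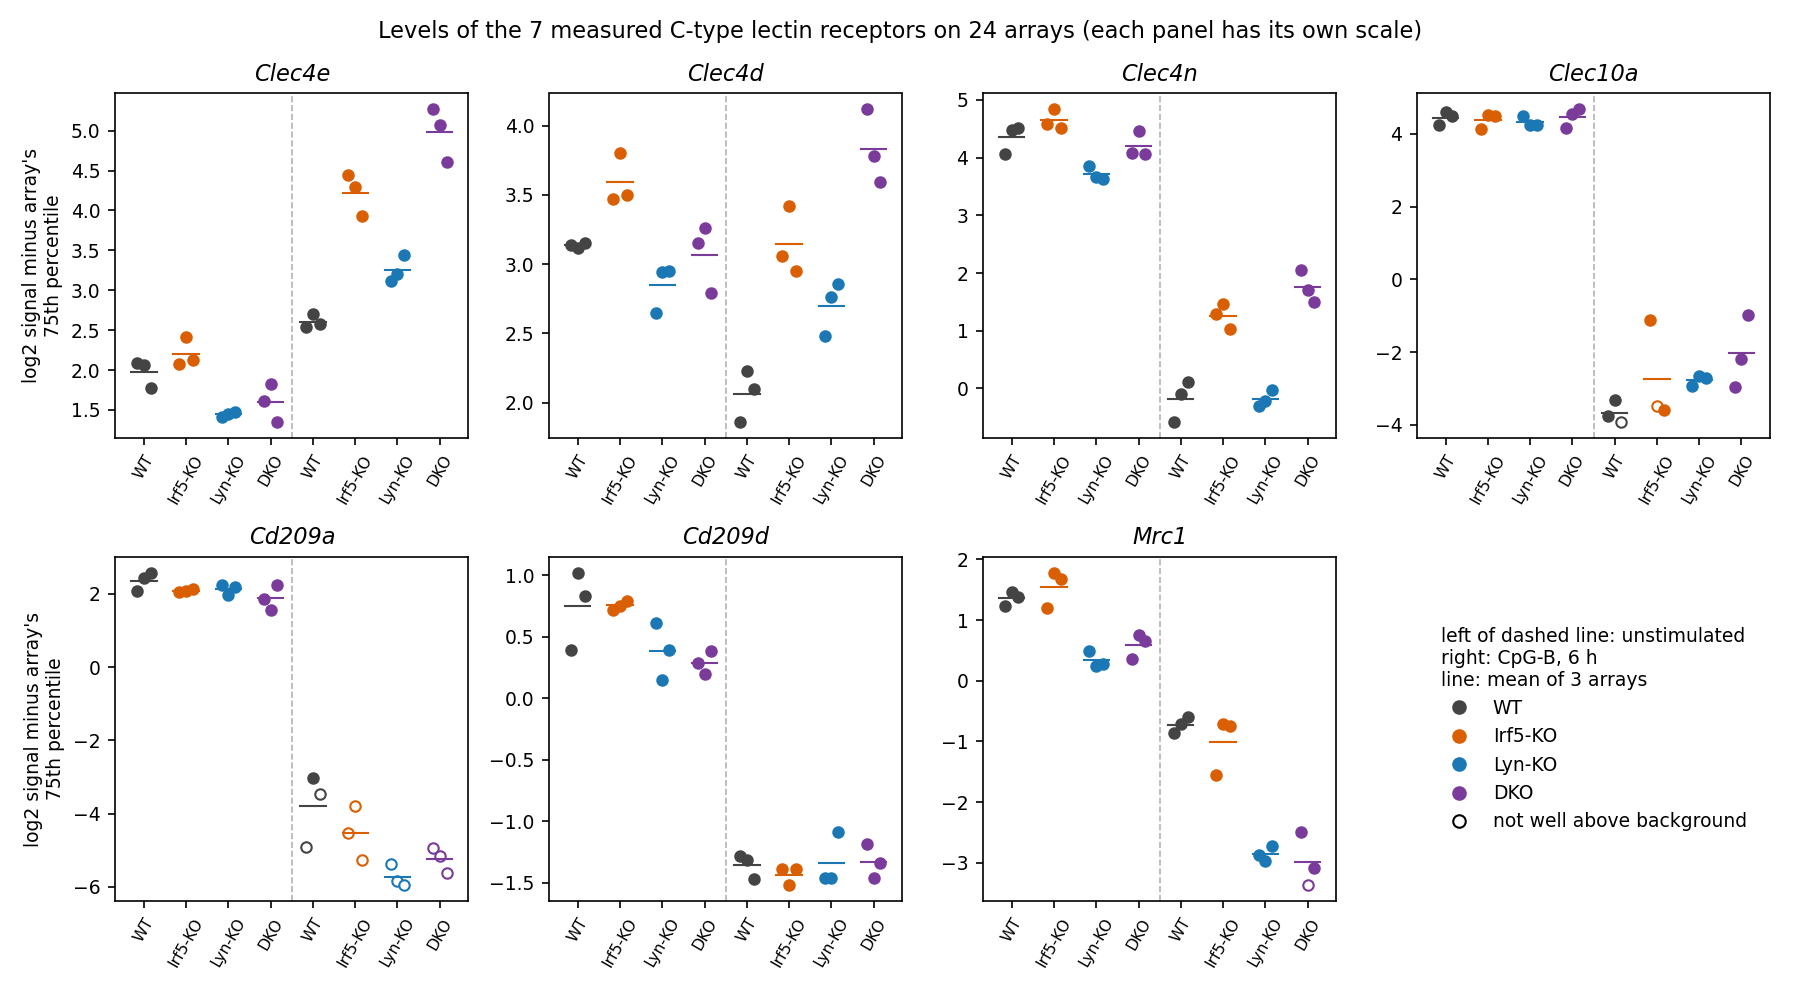
Level of each of the 7 measured receptors on each of the 24 arrays (log2 signal minus the 75th percentile of the array), with the mean of 3 arrays per group as a line. Clec4e rose with CpG-B and reached 4.61 to 5.27 in DKO, Clec10a and Cd209a fell farthest, with some or most CpG-B arrays not well above background (open symbols), and Mrc1 with CpG-B was lower in Lyn-KO and DKO than in WT.

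Clec4e, which senses mycobacterial cord factor and a protein released by dying cells, was raised by CpG-B in all 4 genotypes, and the size of the rise differed between genotypes. WT arrays read 2.09, 2.06 and 1.78 without CpG-B and 2.54, 2.70 and 2.58 with it. Irf5-KO arrays read 2.08, 2.41 and 2.12, and then 4.44, 4.29 and 3.93. The WT and Irf5-KO arrays overlapped before stimulation and were fully separate after it. In Lyn-KO the levels were 1.41, 1.45 and 1.48 before and 3.12, 3.21 and 3.44 after, and in DKO 1.61, 1.83 and 1.35 before and 5.27, 5.07 and 4.61 after. With CpG-B the 4 groups stood in the order DKO, Irf5-KO, Lyn-KO and WT, and no neighbours in that order overlapped. The change with CpG-B was 0.63 in WT (SE 0.16, adjusted p = 0.00189, limma), 2.02 in Irf5-KO, 1.81 in Lyn-KO and 3.39 for DKO (each SE 0.16), which is 1.55-fold in WT and 10.5-fold in DKO. The response exceeded that of WT by 1.39 in Irf5-KO (SE 0.23, adjusted p = 3.33e-04), by 1.18 in Lyn-KO (adjusted p = 0.00186) and by 2.76 in DKO (adjusted p = 3.69e-08). Within slides the DKO excess was 3.21, 2.59 and 2.46. The effect of Lyn loss on the level with CpG-B differed between cells without and with Irf5 by 0.12 (SE 0.23), which was not called (adjusted p = 0.893).

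Clec4d, the partner with which Clec4e forms a heterodimer, fell in WT and rose in DKO. WT arrays read 3.14, 3.12 and 3.15 without CpG-B and 1.86, 2.23 and 2.10 with it. DKO arrays read 3.15, 3.26 and 2.79, and then 4.12, 3.78 and 3.59. The WT levels dropped below every unstimulated array of that genotype, whereas the DKO levels all lay above theirs. Irf5-KO went from 3.47, 3.80 and 3.50 to 3.06, 3.42 and 2.95, and Lyn-KO from 2.65, 2.94 and 2.95 to 2.48, 2.76 and 2.86, where the groups overlapped. The change was -1.07 in WT (SE 0.16, adjusted p = 7.41e-06), -0.45 in Irf5-KO (adjusted p = 0.0193), -0.15 in Lyn-KO (adjusted p = 0.423, not called) and 0.76 for DKO (adjusted p = 3.04e-04). The Irf5-KO fall lost its call when Irf5-KO replicate 2 without CpG-B was left out (-0.34, adjusted p = 0.099) and without replicate 1 (-0.40, adjusted p = 0.0619) or 3 (-0.35, adjusted p = 0.0932) with CpG-B. The response of Lyn-KO exceeded that of WT by 0.92 (SE 0.23, adjusted p = 0.0111) and that of DKO by 1.84 (adjusted p = 4.78e-06), while the excess in Irf5-KO, 0.63, had an adjusted p of 0.0813.

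Clec4n, the receptor for fungal alpha-mannan, fell in every genotype, and by less in DKO than in WT. WT arrays went from 4.06, 4.48 and 4.52 to -0.58, -0.10 and 0.11, and Lyn-KO arrays from 3.85, 3.66 and 3.63 to -0.31, -0.22 and -0.03. Irf5-KO arrays went from 4.58, 4.84 and 4.51 to 1.29, 1.46 and 1.03, and DKO arrays from 4.08, 4.46 and 4.07 to 2.06, 1.71 and 1.50. With CpG-B the WT and Lyn-KO arrays overlapped, and both groups labelled as lacking Irf5 lay above them with no overlap. The change was -4.54 in WT (23.2-fold lower), -3.39 in Irf5-KO, -3.90 in Lyn-KO and -2.44 for DKO (each SE 0.18), and within slides the WT change was -4.64, -4.58 and -4.40. The response was less negative than in WT by 1.15 in Irf5-KO (SE 0.26, adjusted p = 0.00486) and by 2.09 in DKO (adjusted p = 4.81e-06), and the corresponding 0.64 in Lyn-KO was not called (adjusted p = 0.133).

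Clec4n, Clec4d and Clec4e lie next to each other on mouse chromosome 6, in that order, at the end of a run of Clec4 genes. The 250 bases before the start of the genes for Clec4d and Clec4e are shown because these neighbours and partners moved in opposite directions in WT cells. The sequences are those of RefSeq on GRCm38.p6, 5′ to 3′ on the strand of each gene, from chr6:123261857-123262106 (plus strand) for Clec4d and chr6:123289872-123290121 (minus strand) for Clec4e. Capitals mark matches to any of 4 motifs.
Clec4d: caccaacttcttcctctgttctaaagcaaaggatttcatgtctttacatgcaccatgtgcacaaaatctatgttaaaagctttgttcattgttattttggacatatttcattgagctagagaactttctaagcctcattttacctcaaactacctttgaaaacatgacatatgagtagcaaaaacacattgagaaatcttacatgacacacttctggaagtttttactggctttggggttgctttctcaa
Clec4e: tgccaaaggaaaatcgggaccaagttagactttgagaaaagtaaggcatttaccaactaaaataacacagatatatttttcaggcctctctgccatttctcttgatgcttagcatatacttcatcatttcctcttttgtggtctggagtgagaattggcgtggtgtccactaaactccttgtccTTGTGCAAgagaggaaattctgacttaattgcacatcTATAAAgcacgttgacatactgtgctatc
The motifs were searched on both strands. That of C/EBP factors was spelled TTGCNNAA, and that of PU.1, a myeloid factor, AGGAAGT. The AP-1 motif was spelled TGANTCA. The TATA box was searched as TATAAA. The Clec4e sequence held a C/EBP match from -66 to -59 and a TATA match from -29 to -24, counted back from the start of the gene, and the Clec4d sequence held none of the 4. Over 32536 distinct upstream sequences of the same length, 9.57% held a C/EBP match and 12.3% a TATA match. Of the 10 receptors, 8 had an upstream sequence in the table, of which 2 held a C/EBP match, 3 a TATA match, 2 a PU.1 match and 1 an AP-1 match. The shares over all sequences were 7.7% for PU.1 and 6.73% for AP-1.

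The other Clec4 genes of the same run did not share 1 pattern. In their order on the chromosome these are Clec4a1, Clec4a3, Clec4a4, Clec4b1, Clec4a2 and Clec4b2, relatives of DCIR and the related activating receptors. Clec4b1 with CpG-B read 1.66 to 1.75 in WT, 1.62 to 1.87 in Irf5-KO, 2.79 to 2.86 in Lyn-KO and 2.73 to 2.90 for DKO. It was thus higher in Lyn-KO by 1.15 (adjusted p = 1.46e-09) and in DKO by 1.10, while the difference in Irf5-KO was 0.05 (adjusted p = 0.698). Clec4a4 was likewise higher in Lyn-KO by 1.05 and lower in Irf5-KO (-0.41, adjusted p = 6.37e-04). Clec4a3 was lower in DKO (-1.55) and in Irf5-KO (-0.66), and Clec4a1 was lower in Irf5-KO (-0.49) and higher in Lyn-KO (0.28). Clec4b2 was well above background on 0 of 3 WT arrays with CpG-B and on 2 of 3 in Lyn-KO and in DKO, so that no fold is given.

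**Figure D2:**
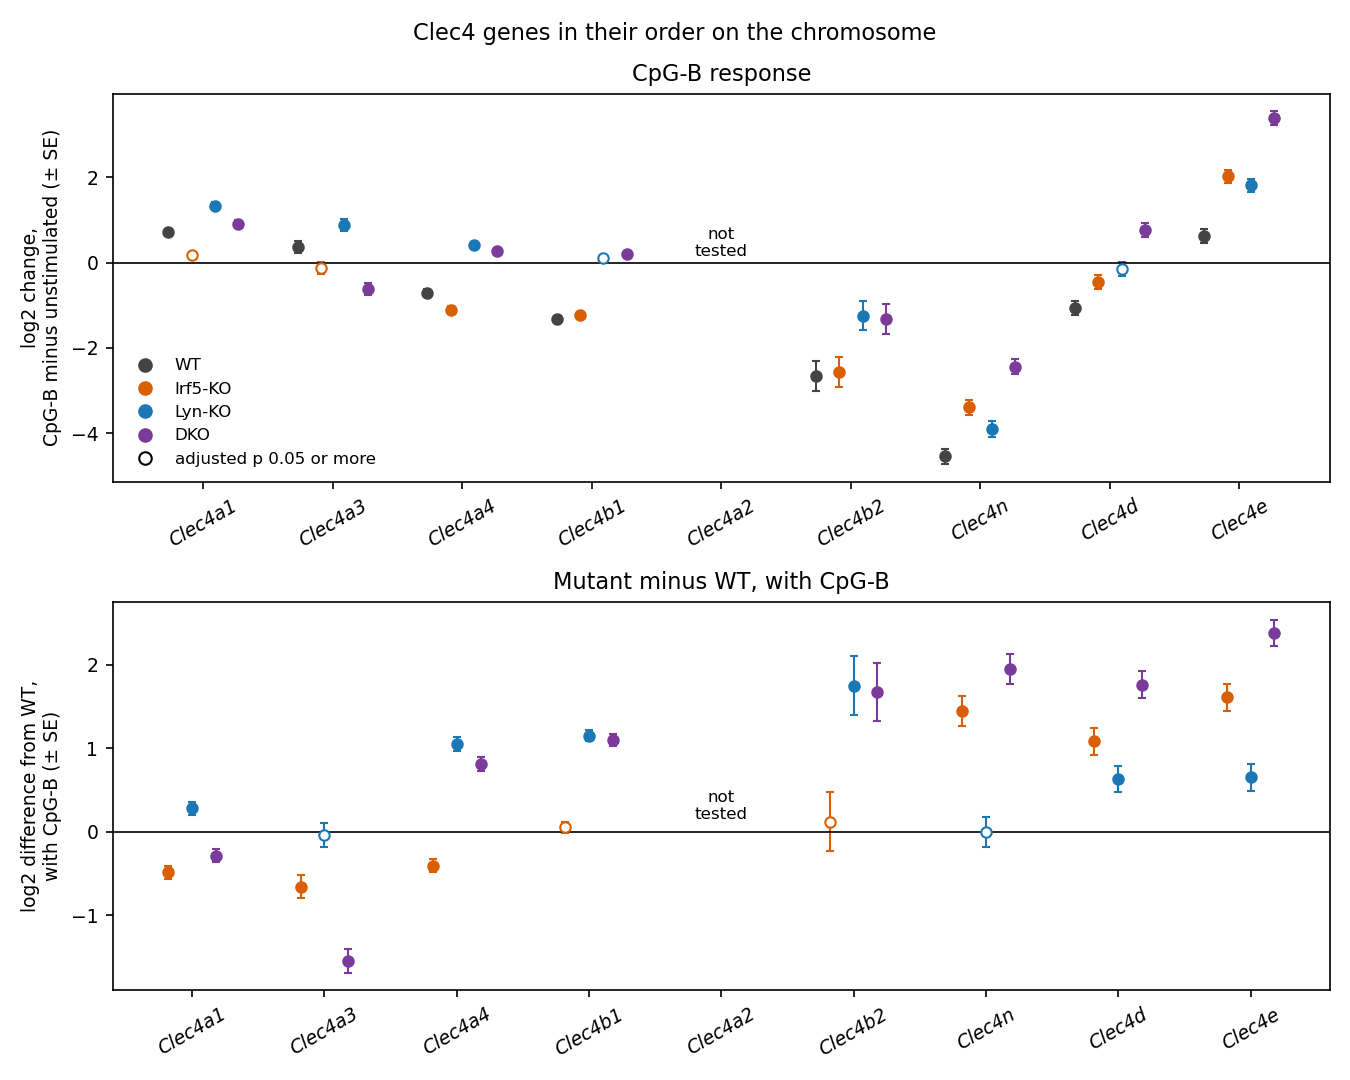
Change with CpG-B in each genotype (above) and difference of each mutant from WT with CpG-B (below) for the Clec4 genes in their order on chromosome 6, as log2 values with standard errors, open where the adjusted p was 0.05 or more. Clec4n, Clec4d and Clec4e were higher in Irf5-KO and DKO than in WT with CpG-B, and Clec4d and Clec4e were also higher in Lyn-KO. Clec4a4 and Clec4b1 were higher in Lyn-KO and DKO.

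Clec10a, an uptake receptor for galactose-type sugars, was bright in all unstimulated groups and nearly lost after CpG-B. The unstimulated arrays ranged from 4.25 to 4.60 in WT, 4.13 to 4.51 in Irf5-KO, 4.25 to 4.50 in Lyn-KO and 4.15 to 4.68 for DKO, and these groups overlapped. With CpG-B, WT arrays read -3.75, -3.33 and -3.92 and Irf5-KO arrays -1.13, -3.47 and -3.58, with 2 of 3 arrays well above background in each. Lyn-KO arrays read -2.93, -2.66 and -2.72 and DKO arrays -2.95, -2.18 and -0.98. Replicate 1 of Irf5-KO and replicate 3 of DKO lay far above the other arrays of their groups. The change was -8.11 in WT (SE 0.49, adjusted p = 2.20e-11), -7.11 in Irf5-KO, -7.10 in Lyn-KO and -6.50 for DKO. The sizes in WT and Irf5-KO are uncertain and no fold is given, since not every CpG-B array there was well above background. With CpG-B, DKO exceeded WT by 1.63 (adjusted p = 0.0105), which was 1.10 (adjusted p = 0.0793) without DKO replicate 3 and 0.67 (adjusted p = 0.0518) after a different background correction, normexp followed by quantile normalisation. No difference of the response itself was called, although without DKO replicate 1 with CpG-B that of DKO was 2.06 (adjusted p = 0.0289). With only the compared groups fitted, that of Lyn-KO was called at 1.00 (adjusted p = 0.0187, against 0.423 in the main fit). Lyn-KO was then also called higher than WT with CpG-B, by 0.90 (adjusted p = 0.0164, against 0.198). Without Irf5-KO replicate 1, DKO exceeded Irf5-KO with CpG-B by 1.49 (adjusted p = 0.00399). Mgl2, the close relative that lies beside Clec10a on chromosome 11, read 6.21 to 6.45 in unstimulated WT and 6.68 to 6.74 with CpG-B, a rise of 0.36 (adjusted p = 0.00119), and thus did not follow Clec10a.

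The Cd209 receptors also fell. Cd209a read 2.09, 2.42 and 2.58 in unstimulated WT and -4.90, -3.04 and -3.47 with CpG-B, when 1 of 3 arrays was well above background. In the other genotypes no CpG-B array was well above background, so the fall there is a bound. It sets the bright mean against the measured value or, where larger, the lowest signal of any probe that counted as above background on that array. With the main processing it was at least 72.0-fold in Irf5-KO (means 2.09 and -4.53), at least 55.8-fold in Lyn-KO (2.13 and -5.73) and at least 39.4-fold in DKO (1.89 and -5.23). After normexp followed by quantile normalisation the log2 changes were -4.31, -4.67 and -4.29 in the same order. These falls are smaller than the bounds, which therefore hold for the main processing only. The fit called Cd209a lower than WT in Lyn-KO (-1.92) and DKO (-1.43) with CpG-B, but all 3 arrays of each mutant and 2 of 3 of WT were not well above background there, and no fold can be given. A dimmer second probe for the gene was well above background on 12 unstimulated arrays and on 0 of 3 arrays of every CpG-B group, so it bears on no genotype difference with CpG-B.

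Cd209d was measured on all 24 arrays and fell in each genotype, with no genotype difference called. WT arrays went from 0.39, 1.02 and 0.83 to -1.28, -1.31 and -1.47. The change was -2.10 in WT (adjusted p = 8.34e-11), -2.19 in Irf5-KO, -1.72 in Lyn-KO and -1.61 for DKO (each SE 0.14). With CpG-B the mutants differed from WT by -0.08, 0.02 and 0.03 (each SE 0.14), in the order Irf5-KO, Lyn-KO and DKO. Without WT replicate 1 of the unstimulated arrays, Cd209d was called lower in unstimulated Lyn-KO (-0.54, adjusted p = 0.0206) and DKO (-0.64, adjusted p = 0.00542), and its fall with CpG-B was smaller than in WT by 0.56 (adjusted p = 0.0461) and 0.67 (adjusted p = 0.00616). Cd209c, a further relative from the same stretch of chromosome 8, read -3.61 to -3.01 in WT with CpG-B and was then well above background on all 3 arrays, against 0 of 3 in Lyn-KO and in DKO.

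Mrc1 was lower than in WT in both genotypes without Lyn, with CpG-B and without it. In unstimulated cells it read 1.23, 1.46 and 1.38 in WT and 1.20, 1.78 and 1.67 in Irf5-KO, but 0.49, 0.25 and 0.28 in Lyn-KO and 0.36, 0.76 and 0.65 in DKO. With CpG-B it read -0.86, -0.71 and -0.60 in WT and -1.55, -0.72 and -0.74 in Irf5-KO, against -2.87, -2.97 and -2.72 in Lyn-KO and -2.49, -3.37 and -3.09 in DKO. In either condition the arrays with Lyn and those without did not overlap. Lyn-KO was lower than WT by -1.02 without CpG-B (SE 0.22, adjusted p = 0.00877) and by -2.13 with it (SE 0.22, adjusted p = 8.13e-07, 4.37-fold), in the same direction on all 3 slides. DKO was lower than WT by -2.26 with CpG-B (adjusted p = 1.02e-07) and lower than Irf5-KO by -1.98. With CpG-B only 2 of 3 DKO arrays were well above background, replicate 2 (processed signal 30.3) being the exception. The Lyn-KO signals there were 38.8 to 52.5, so the sizes of these differences are uncertain. The fall with CpG-B itself was -2.08 in WT, -2.55 in Irf5-KO, -3.19 in Lyn-KO and -3.57 for DKO. It was larger than in WT by -1.11 in Lyn-KO (SE 0.31, adjusted p = 0.0256) and by -1.49 in DKO (adjusted p = 0.00107), and neither was called after normexp and quantile normalisation (-0.26, adjusted p = 0.476, and -0.53, adjusted p = 0.0597). Under that setting the differences with CpG-B remained called, at -1.21 for Lyn-KO and -1.28 for DKO against WT and -1.11 for DKO against Irf5-KO.

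The sequence before the start of Mrc1 is shown because it is the receptor whose level went with Lyn. It covers chr2:14229164-14229413 of GRCm38.p6 (RefSeq, plus strand), with motif matches in capitals.
Mrc1: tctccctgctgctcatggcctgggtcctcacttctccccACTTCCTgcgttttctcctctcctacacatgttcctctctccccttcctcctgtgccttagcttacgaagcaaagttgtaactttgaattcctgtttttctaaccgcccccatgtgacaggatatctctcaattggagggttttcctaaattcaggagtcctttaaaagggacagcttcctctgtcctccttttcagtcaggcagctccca
It held a PU.1 match from -211 to -205 on the opposite strand, with the letters in capitals read on the strand of the gene. The other receptor with a PU.1 match, from -47 to -41, was Cd209d, for which no genotype difference was called.

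**Figure D3:**
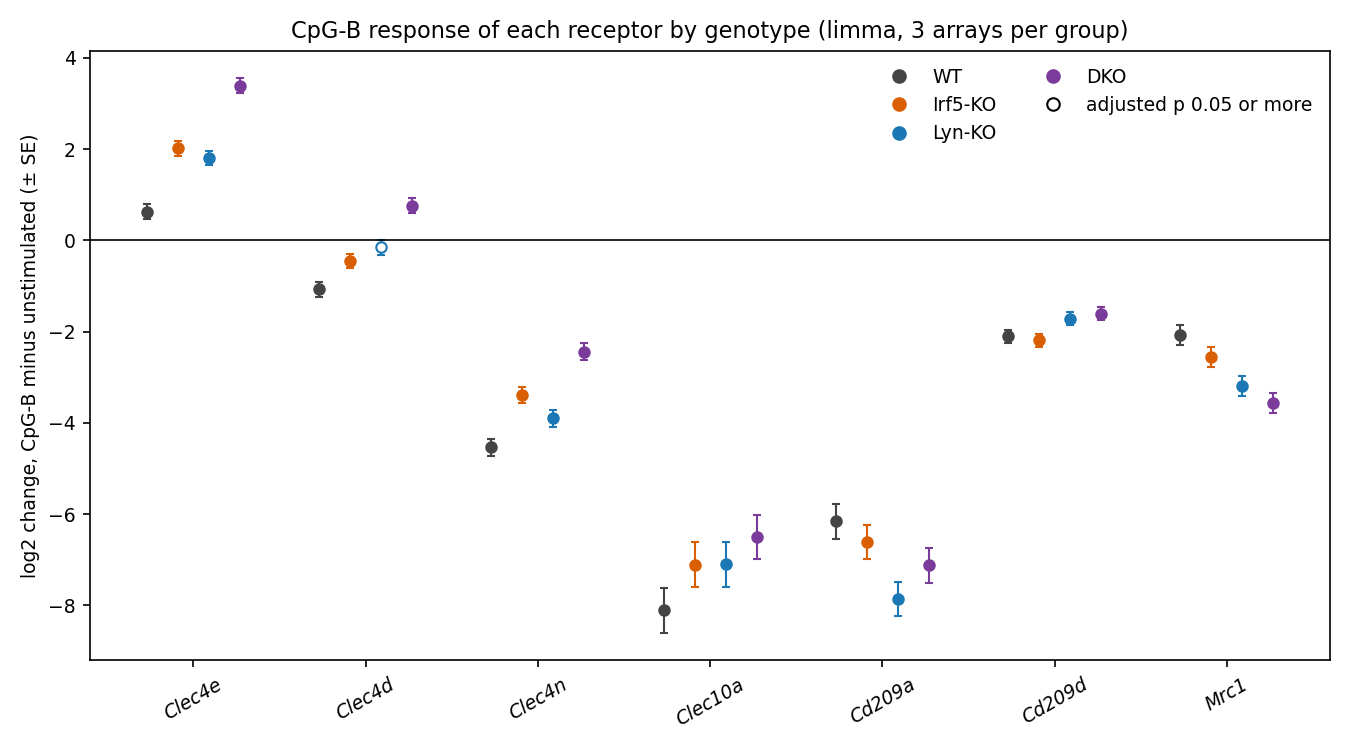
Change with CpG-B for each receptor and genotype, as log2 values with standard errors from limma, open where the adjusted p was 0.05 or more. Clec4e rose in all 4 genotypes, from 0.63 in WT to 3.39 in DKO, Clec4d ran from -1.07 in WT to 0.76 in DKO, and the other receptors fell.

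Without CpG-B few receptors were called between genotypes. With limma, 0 receptors were called in Irf5-KO against WT, where 0.737% of all features were called, and 1 had an unadjusted p under 0.05 (Clec4d, 0.45, adjusted p = 0.267). In Lyn-KO and DKO against WT 1 of 7 was called in each, Mrc1, against 4.58% and 6.78% of all features, and 4 and 3 had an unadjusted p under 0.05. DKO against Irf5-KO called 2, Mrc1 (-0.96, adjusted p = 0.0108) and Clec4e (-0.60, adjusted p = 0.0317), against 5.35%, with 5 under an unadjusted 0.05, and DKO against Lyn-KO called 0 against 0.163%, with 1 under an unadjusted 0.05 (Clec4n, 0.49, adjusted p = 0.509). The DKO call for Mrc1 (-0.77, adjusted p = 0.0405) was lost on leaving out any of the 3 WT or the 3 DKO arrays without CpG-B, with adjusted p from 0.054 to 0.17. In DKO against Irf5-KO the Mrc1 call was lost without DKO replicate 1 (-0.85, adjusted p = 0.0608) and without Irf5-KO replicate 2 (-0.85, adjusted p = 0.0696) or 3 (-0.91, adjusted p = 0.0512). The Clec4e call was lost without DKO replicate 1 (-0.61, adjusted p = 0.0794) or 3 (-0.48, adjusted p = 0.165) and without Irf5-KO replicate 2 (-0.50, adjusted p = 0.166) or 3 (-0.64, adjusted p = 0.0609). With the slide as a replicate block, Lyn-KO against WT called 2 receptors, Mrc1 and Clec4e (-0.53, adjusted p = 0.0418, against 0.0722 without the block). Clec4n in Lyn-KO (-0.64, adjusted p = 0.0534) was called after quantile normalisation (-0.65, adjusted p = 0.0471), after normexp followed by quantile normalisation (-0.60, adjusted p = 0.035), among probes detected on all arrays (adjusted p = 0.0487), with a trended, robust variance prior (adjusted p = 0.0342) and without WT replicate 1 (-0.78, adjusted p = 0.031). In DKO against Irf5-KO the block added Clec4d (-0.53, adjusted p = 0.0424, against 0.0657 without it).

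With CpG-B the differences were larger. Irf5-KO against WT called 3 receptors, all higher, namely Clec4e (1.61, adjusted p = 4.78e-07), Clec4n (1.45) and Clec4d (1.08), where 25.5% of all features were called. Lyn-KO against WT called 4 against 25.2%, Clec4e (0.65) and Clec4d (0.63) higher and Mrc1 and Cd209a lower, or 3 without Cd209a, which was not well above background on any Lyn-KO array there, while Clec4n differed by 0.00 (SE 0.18, adjusted p = 0.996). DKO against WT called 6 against 44.8%, with Clec4e (2.38), Clec4n (1.95), Clec4d (1.76) and Clec10a higher and Mrc1 and Cd209a lower, or 5 without Cd209a. The Cd209a call was lost after normexp followed by quantile normalisation (-0.35, adjusted p = 0.11) and with only the compared groups fitted (adjusted p = 0.0622). DKO exceeded Irf5-KO in Clec4e (0.76, adjusted p = 0.00109), Clec4d (0.68) and Clec4n (0.50, adjusted p = 0.0412) and was lower in Mrc1, 4 of 7 against 33.0%. The Clec4n difference lost its call without DKO replicate 1 (0.35, adjusted p = 0.195) or 2 (0.52, adjusted p = 0.0707) and without Irf5-KO replicate 1 (0.52, adjusted p = 0.0738) or 3 (0.39, adjusted p = 0.164). DKO exceeded Lyn-KO in Clec4n (1.95), Clec4e (1.73) and Clec4d (1.13), 3 of 7 against 31.5%. The median difference over the 7 receptors from WT was 0.94 in Irf5-KO, 0.02 in Lyn-KO and 1.63 for DKO, beside 0.02, 0.05 and 0.06 over all features. The 0.94 and the 1.63 are each the value of Clec10a. In Irf5-KO it was not called and differed by 2.62, -0.14 and 0.34 within slides. In DKO it differed by 0.80, 1.15 and 2.94 within slides, and by 1.10 without DKO replicate 3 (adjusted p = 0.0793, not called). The medians also include Cd209a from arrays under background. These comparisons share their WT arrays.

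**Figure D4:**
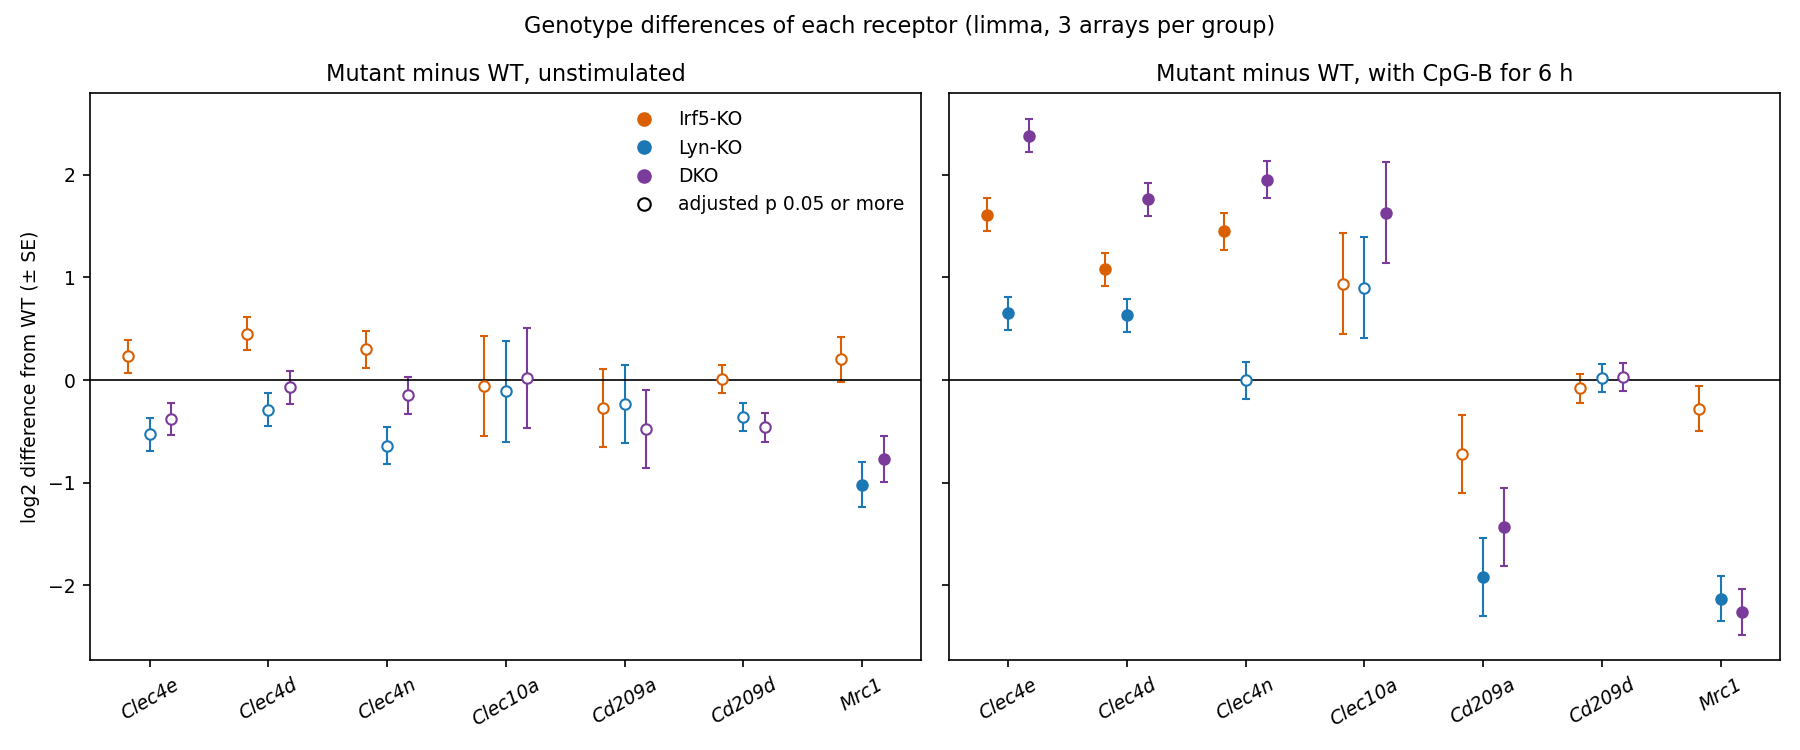
Difference of each mutant from WT for the 7 receptors without CpG-B (left) and with it (right), as log2 values with standard errors from limma, open where the adjusted p was 0.05 or more. Without CpG-B only Mrc1 was called, and with CpG-B Clec4e, Clec4d and Clec4n were highest in DKO while Mrc1 was lower in Lyn-KO and DKO by -2.13 and -2.26.

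The response to CpG-B differed from that of WT for 2 of 7 receptors in Irf5-KO (Clec4e and Clec4n), where 12.6% of all features were called. In Lyn-KO it differed for 4 (Clec4d, Clec4e, Mrc1 and Cd209a) against 11.1%, and in DKO for 4 (Clec4d, Clec4e, Clec4n and Mrc1) against 30.5%. The Cd209a difference (-1.70, adjusted p = 0.0495) was not called with the replicate block (adjusted p = 0.0557) and rests on arrays under background. The Mrc1 difference in Lyn-KO lost its call without WT replicate 1 or Lyn-KO replicate 1 in the unstimulated groups (adjusted p = 0.061 and 0.055), and without WT replicate 3 or Lyn-KO replicate 2 with CpG-B (adjusted p = 0.0624 and 0.0594). A dependence of the Lyn effect on Irf5 was called by limma for 0 of 7 receptors without CpG-B, against 0.0841% of all features, and for 0 of 7 with it, against 3.61%. At an unadjusted p under 0.05 the counts were 0 and 1 (Cd209a with CpG-B, 1.22, adjusted p = 0.267, on arrays mostly under background). For Clec4d that difference with CpG-B was 0.05 (SE 0.23), for Clec4n 0.50 (SE 0.26) and for Mrc1 0.14 (SE 0.31).

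Markers of other cells moved with some of these results. Of 16 monocyte and macrophage markers, 15 were tested. Their summed level with CpG-B was 5.83 to 5.85 in WT, 6.50 to 6.68 in Irf5-KO, 5.90 to 6.05 in Lyn-KO and 6.59 to 6.92 for DKO. Against WT with CpG-B, 7 of 15 were higher and 0 lower in Irf5-KO (25.5% of all features called), 1 higher and 3 lower in Lyn-KO (25.2%), and 5 higher and 2 lower in DKO (44.8%, so 7 of 15 is near that share). Cd14 was higher by 1.50 in Irf5-KO and 2.16 in DKO, whereas Fcgr3 was lower (log2 differences of -1.21 in Lyn-KO and -1.51 in DKO), as was F13a1 (-1.07 and -0.83). In each group with CpG-B, every array measured 13 of the 15 well above background. Without CpG-B their sum was 7.28 to 7.29 in WT, 7.42 to 7.62 in Irf5-KO, 7.09 to 7.12 in Lyn-KO and 7.18 to 7.32 in DKO. Of the 15, 0 were then called in Irf5-KO (0.737% of all features called). In Lyn-KO 2 were called lower and 0 higher (4.58%), and in DKO 1 higher and 0 lower (6.78%). The part of these markers in the Clec4e, Clec4d, Clec4n and Mrc1 differences was not tested. B lineage markers were lower in Lyn-KO without CpG-B for 11 of 11 genes, where 4.58% of all features were called. Their summed levels were 3.48 to 3.56, against 6.36 to 6.97 in WT and 3.35 to 4.01 in DKO. With CpG-B they stood at 6.12 to 6.53 in WT, 6.64 to 7.01 in Irf5-KO, 4.59 to 4.68 in Lyn-KO and 4.02 to 4.15 for DKO, and their part in the Mrc1 difference was not tested. With CpG-B, 7 of 11 were lower than in WT in Lyn-KO (25.2% of all features called) and 9 of 11 in DKO (44.8%). In both, 0 were higher. Cd79a was well above background on 0 of 3 arrays of Lyn-KO and DKO with CpG-B, whereas Fcmr read 2.32 to 2.47 in Lyn-KO and 2.33 to 2.44 in WT. From unstimulated to CpG-B, 7 of the 11 rose in Lyn-KO and 1 fell (68.9% of all features called). Of 11 genes typical of plasmacytoid dendritic cells, Lyn-KO with CpG-B had 7 called above WT and 1 below (25.2% of all features called). In DKO 6 were above and 3 below (44.8%), and in Irf5-KO 0 above and 4 below (25.5%). Their sums were 10.03 to 10.19 in Lyn-KO, 10.01 to 10.15 in DKO and 9.49 to 9.60 in Irf5-KO, against 9.57 to 9.68 in WT. The part of these genes in the receptor differences was not tested either. The 8 type 2 conventional dendritic cell markers were well above background on all arrays. After CpG-B their summed levels were 8.69 to 8.77 in WT, 8.83 to 8.91 in Irf5-KO, 8.49 to 8.51 in Lyn-KO and 8.64 to 8.71 for DKO. Against WT with CpG-B, 5 of the 8 were higher and 1 lower in Irf5-KO (25.5% of all features called). In Lyn-KO 1 was higher and 3 lower (25.2%), and in DKO 3 were higher and 1 lower (44.8%). The part of these markers in the receptor differences was not tested. Neutrophil markers were lower in DKO than in WT for 7 of 13 tested without CpG-B (6.78% of all features called) and for 9 with it, when 1 was higher (44.8%).

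**Figure D5:**
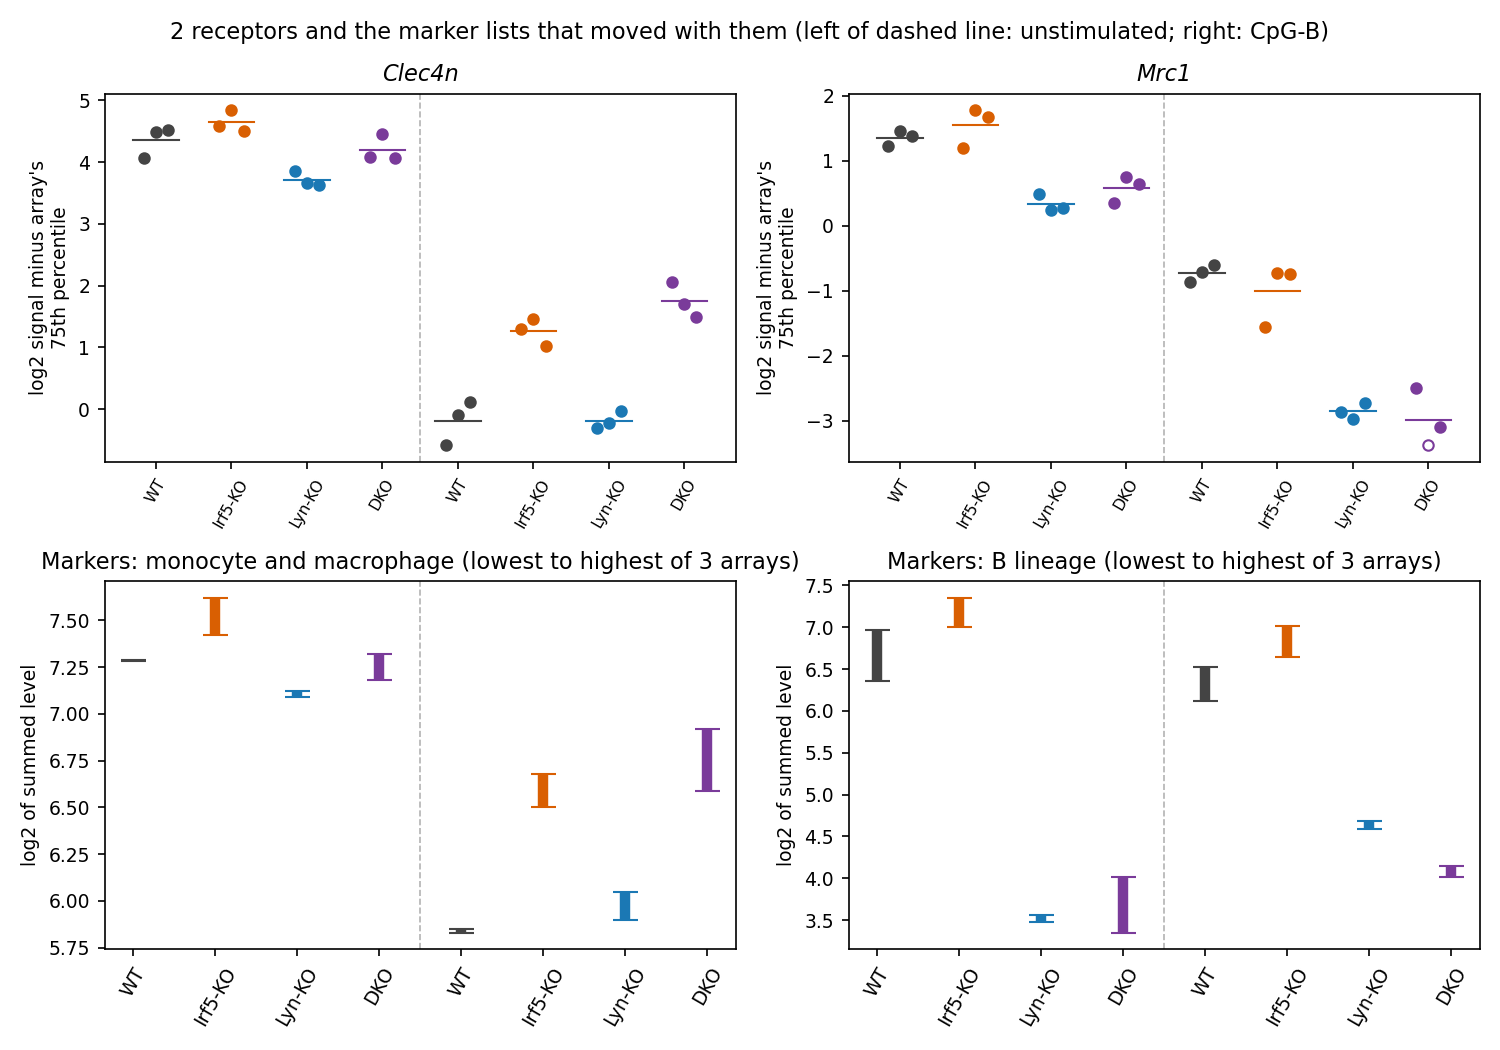
Levels of Clec4n and Mrc1 on each array (above) and the lowest to highest summed level over 3 arrays of the monocyte and macrophage markers and of the B lineage markers (below), all on the log2 scale. With CpG-B the monocyte and macrophage sum was 6.59 to 6.92 in DKO against 5.83 to 5.85 in WT, and the B lineage sum was 4.59 to 4.68 in Lyn-KO against 6.12 to 6.53 in WT.

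Of the remaining receptors, the 2 with inhibitory motifs were near background. Clec4a2 was well above background on 5 of 24 arrays, with processed signals of 12.8 to 55.6 and levels between -4.95 and -3.07. Clec12a was so on 5 of 24 arrays, between -6.05 and -0.66, with its highest value on 1 Irf5-KO array with CpG-B, while the other arrays of that group read -3.53 and -4.63. Neither was kept for the test, and no group had all 3 arrays above background. No probe of the array was matched to Clec7a, and it is not analysed here.

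A wider list of 30 other C-type lectin receptors had 18 genes bright enough to test. In WT, CpG-B raised 9 and lowered 8, where 68.5% of all features were called, with a median of 0.05 beside -0.03 over all features. These include Ly75 and Clec12b, above background on 0 unstimulated arrays, and Clec4g and Clec4b2, on 0 of 3 WT arrays with CpG-B, which passed the filter only through groups where they are high. Among those that rose, Cd69, an early activation antigen, read 0.93 to 1.49 before and 3.96 to 4.19 after, and Ly75 (DEC-205), an uptake receptor of mature dendritic cells, was well above background on all 12 arrays with CpG-B. Clec9a, which binds exposed actin of dead cells and marks type 1 conventional dendritic cells, changed by -0.26 in WT. Against WT without CpG-B, 0 were higher and 3 lower in Lyn-KO (4.58% of all features called). In DKO 1 was higher and 3 lower (6.78%), and in Irf5-KO 0 were called (0.737%). Against WT with CpG-B, the list had 2 higher and 3 lower in Irf5-KO, 6 higher and 1 lower in Lyn-KO, and 6 higher and 5 lower in DKO, beside 25.5%, 25.2% and 44.8% of all features. Cd302, which was higher in Irf5-KO (0.92) and DKO (0.61), and Cd69, higher in DKO by 1.19, were among them.

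The adaptors and kinases through which Clec4e, Clec4d and Clec4n signal were all measured, 13 of 13 on this list. In WT CpG-B raised 6 and lowered 5 (68.5% of all features called), and in DKO it raised 10 and lowered 3 (70.5%). Fcer1g, the adaptor of the Clec4 receptors, rose by 0.81 in WT and 0.96 in DKO, whereas Tyrobp, a related adaptor, fell by 1.52 on the log2 scale in WT and by 1.25 in DKO. Syk read 4.78 to 4.98 in unstimulated WT and 4.48 to 4.60 with CpG-B, against 4.47 to 4.69 and then 5.70 to 5.86 in DKO. It thus stood 1.21 higher in DKO than in WT with CpG-B (adjusted p = 5.08e-11), 0.71 higher in Irf5-KO and 0.34 higher in Lyn-KO. Vav3, an exchange factor below Syk, was 2.24 higher in DKO than in WT with CpG-B, and Prkcd, the kinase that activates Card9, was 1.19 higher. Card9 itself was dim, above background on all unstimulated arrays but on 1 of 3 WT arrays and 0 of 3 Lyn-KO arrays with CpG-B. It passed the filter only through the unstimulated groups, so its fall adds no support to the counts of lowered genes. Malt1 rose by 0.93 in WT and 1.04 in DKO and no mutant was called different from WT. In all, 7 of the 13 were higher and 2 lower in DKO than in WT with CpG-B, beside 44.8% of all features called.

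Of 3 phosphatases that inhibitory receptors recruit, Inpp5d fell by 3.25 on the log2 scale with CpG-B in WT, and Ptpn6, which read 5.34 to 5.42 in WT with CpG-B, was 0.51 higher in Lyn-KO and 0.91 higher in DKO. Among 13 transcription factors of myeloid cells, CpG-B in WT raised 4 and lowered 7, where 68.5% of all features were called. Cebpa, among the lowered, was well above background on all unstimulated arrays and on 0 of 3 WT arrays with CpG-B, and passed the filter only through the groups where it is high, whereas Cebpb rose by 1.47 and Relb by 1.75. Irf4, a factor of type 2 conventional dendritic cells, was lower than in WT in Lyn-KO (-0.52) and DKO (-0.52) without CpG-B and in Lyn-KO (-0.64) and DKO (-1.31) with it. In Irf5-KO it read 2.38 to 2.68 without CpG-B, above the 1.74 to 2.17 of WT. With CpG-B it read 3.14 to 3.22 there, below the 3.57 to 3.61 of WT.

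As a description, each receptor was compared with all named genes by Pearson correlation over the 24 arrays, which share their groups and the CpG-B change. Those most like Clec4e were Cdkn1a (0.98), Nrp2 (0.98) and Sdc3 (0.97), and those most like Clec4d were Cd36 (0.94), Capg (0.93) and Cd14 (0.93). Clec4n was closest to Dusp6, Csf1r and Fkbp2 (0.99 each), Clec10a to Ppfia4, Was and Inpp5d (0.99 each) and Mrc1 to E2f2, Bmf and Cenpv (0.97 each). Cd209a was closest to Ccdc28b, Ptpn18 and Adora3 (0.99 each) and Cd209d to Cnnm2 and Card10 (0.99 each). Among the receptors themselves, Clec10a correlated with Clec4n and Cd209a at 0.95 each and with Cd209d at 0.96, and Clec4e with Cd209a at -0.83. Clec4d stood apart, at 0.51 with Clec4n, 0.37 with Clec4e and 0.04 with Mrc1.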

How the data were processed

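Total RNA of 24 BMDC cultures was labelled with Cy3 and hybridised in 1 colour, per the labels. The authors' scanner output came from Agilent Feature Extraction 10.7.3.1, as stated per the file headers. The processed signal in it, a deposited intensity, had its background subtracted on the array and was not scaled between arrays. The deposited series table holds log2 values of the same arrays, which by comparison with the scanner output had the array's 75th percentile taken off. Differences between arrays were compared, in which any value subtracted from a probe on all arrays cancels. Centring probe by probe was therefore not tested. Its column medians ran from -0.273 to 0.375. For 17008 probes whose mean signal reached 200, each array's difference from the first array was taken in both sets of values. These differences departed from each other by at most 0.0238 in 95% of cases.

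Control spots and 4351 outlier spot values were left out, processed signals were put on the log2 scale and lowered by the array's 75th percentile, and repeated spots were averaged. Of 55681 probes, 26642 passed the filter, which asked for a signal well above background throughout the 3 arrays of some group. A gene was represented by its probe with the highest mean, which left 20210 genes or unnamed accessions, 12649 of them named, with 18 missing values. Names came from matching accessions to a RefSeq gene table of GRCm38.p6. The files annotate the probes on another build, so no probe coordinates are printed. Whether a probe tells near-identical relatives (Clec10a and Mgl2, the Cd209 and Clec4a genes) apart was not tested.

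limma 3.58.1 (R 4.3.3 with the data.table package at 1.17.8) was fitted to the 24 arrays with a mean for each group, and 19 contrasts were tested 2-sided, each adjusted on its own. The number of arrays limits the precision. The script was tested on simulated data. Summed marker levels are log2 of the sum of linear levels over the tested genes of a list. The genes that could be named were the 10 receptors, the 4 lists of related genes, Irf5, Lyn, and the 3 named genes most correlated with each receptor; Cd14, Fcgr3, F13a1, Cd79a and Fcmr come from the marker lists and were picked after their values were seen. For Cd209d 1 of these 3 genes is not reported here. The members, lists and naming rule were chosen with earlier results of these data known. Alternatives were quantile normalisation, quantile normalisation of normexp-corrected signals (offset 50), another reference level, other filters on dim probes, every probe on its own, a replicate block, fits of the compared groups only, the deposited table, another variance prior, and leaving out each array.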

Additional observations from a re-analysis of the deposited data

Results flagged for a closer look

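Responses to CpG-B that differed from that of WT, by a test of the difference itself in limma with adjustment over all features, are given here as log2 differences. In Irf5-KO they were Clec4e (1.39, adjusted p = 3.33e-04) and Clec4n (1.15, adjusted p = 0.00486). In Lyn-KO they were Clec4e (1.18, adjusted p = 0.00186), Clec4d (0.92, adjusted p = 0.0111), Mrc1 (-1.11, adjusted p = 0.0256) and Cd209a (-1.70, adjusted p = 0.0495). The Cd209a value rests on arrays under background with CpG-B, where 0 of 3 Lyn-KO arrays and 1 of 3 WT arrays were well above background, and its call was lost under quantile normalisation (adjusted p = 0.102), normexp followed by quantile normalisation (0.451), no filter (0.113), every probe on its own (0.0534), the replicate block (0.0557) and the compared groups only (0.101). In DKO they were Clec4e (2.76, adjusted p = 3.69e-08), Clec4n (2.09, adjusted p = 4.81e-06), Clec4d (1.84, adjusted p = 4.78e-06) and Mrc1 (-1.49, adjusted p = 0.00107). The Mrc1 call in Lyn-KO was lost under normexp followed by quantile normalisation (-0.26, adjusted p = 0.476), with no filter (adjusted p = 0.0635) and on leaving out some single arrays. That in DKO was lost under normexp followed by quantile normalisation (-0.53, adjusted p = 0.0597). Groups of 3 arrays were not tested for outlying arrays.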

How the results depend on the processing

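Over the alternatives that did not leave out an array, 1273 receptor differences were recomputed. Of these 1240 kept their direction and their side of the threshold, 20 lost the call, 13 gained it and 0 reversed a called direction. Over the fits that left out 1 array each, 1008 were recomputed, with 962 kept, 35 lost, 11 gained and 0 reversed. When the deposited series table was used, 133 of 133 kept their call. The same 7 receptors could not all be tested with only probes detected on all arrays, where 4 were left (Clec4d, Clec4e, Clec4n and Cd209d). Under that filter the calls for CpG-B were 4 in WT, 4 in Irf5-KO, 3 in Lyn-KO and 4 for DKO, with 2 for Lyn-KO and 3 for DKO against WT with CpG-B, 0 for DKO against WT and 1 for DKO against Irf5-KO without CpG-B, and 2 for the Lyn-KO response difference.

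Lyn-KO against WT without CpG-B called 1 receptor, and 2 after quantile normalisation, 2 after normexp followed by quantile normalisation, 2 with the replicate block and 3 with a trended, robust variance prior, with a range of 1 to 3 on leaving out single arrays (3 without WT replicate 1). DKO against WT without CpG-B called 1, then 0 with no filter on dim probes and 2 with the other prior, and 0 to 1 on leaving out arrays. DKO against Irf5-KO without CpG-B called 2, then 1 with no filter, and 0 to 2 on leaving out arrays. There Clec4d gained a call after quantile normalisation (adjusted p = 0.0435), with the replicate block (0.0424) and with the other prior (0.044). With the compared groups only, Cd209d gained a call (0.017) and Clec4e lost its own (0.0981). The Lyn-KO response difference called 4, then 2 with normexp followed by quantile normalisation, 2 with no filter, and 2 to 4 on leaving out arrays. The dependence of the Lyn effect on Irf5 with CpG-B called 0, and 0 to 1 on leaving out arrays (Cd209a, 1.77, without WT replicate 1). The cause of these changes was not tested.

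Replicate numbers mark the slide, per the file headers. Deviations from the group means of same-numbered arrays correlated by -0.08 to 0.29 (median 0.05, 25 of 84 pairs over 0.1) and those of other pairs by -0.27 to 0.13. With the replicate block, 130 of 133 receptor differences kept their call, 1 lost it (Cd209a, adjusted p = 0.0557) and 2 gained it (Clec4e, adjusted p = 0.0418, and Clec4d, adjusted p = 0.0424).

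Over all features, the calls in Irf5-KO against WT without CpG-B numbered 149, but 74 with no filter, 1 when only the groups compared were fitted, and 46 to 97 without WT replicate 1 or any of the 3 Irf5-KO replicates. For Lyn-KO against WT without CpG-B they were 925, then 609 with no filter, 321 with the compared groups only and 593 without Lyn-KO replicate 3. For DKO against WT without CpG-B they were 1370, then 900, 529, and 872 and 886 without WT or DKO replicate 1. DKO against Irf5-KO without CpG-B had 1081, and 706 without Irf5-KO replicate 2. DKO against Lyn-KO without CpG-B had 33, then 21 with no filter, 21 with probes detected on all arrays, 0 with the compared groups only, and 20 and 54 without Lyn-KO or DKO replicate 3. The Lyn-KO response difference had 2236, and 1395 with no filter. The dependence of the Lyn effect on Irf5 had 17 without CpG-B, then 10, 6 with probes detected on all arrays, 3 with the compared groups only and 28 without WT replicate 3, and 730 with CpG-B, then 351 with no filter and 304 with the compared groups only. Another scaling moved the share of higher calls from 43.0% to 53.8% in Irf5-KO against WT without CpG-B, and normexp followed by quantile normalisation moved it from 54.5% to 69.0% in DKO against Lyn-KO and from 52.9% to 69.2% for the dependence, both without CpG-B, where quantile normalisation alone gave 59.1% and 57.9%. Signals near background limit Cd209a, Clec10a and Mrc1 with CpG-B, where under normexp followed by quantile normalisation, which changes both choices at once, the Mrc1 change was -2.09 in Lyn-KO and -2.36 in DKO.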
